A study of Mus musculus with 20 samples.

Results

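The genes described here are 7 LIM homeobox relatives of Lhx8 (Lhx1, Lhx2, Lhx6, Lhx9, Isl1, Lmx1a and Lmx1b) and 3 cofactors of LIM proteins (Ldb1, Ldb2 and Ssbp3). They were chosen by name, as 10 of the 49585 genes counted in each library, to ask whether a relative is higher in ovaries that have lost Lhx8. No LIM homeobox relative passed the test in Lhx8 knockout ovaries at birth, where Lhx1, Lhx2 and Lmx1a had too few counts to be tested. The tested relative nearest to passing was Lhx9, 1.42-fold higher with an adjusted p of 0.0581 (edgeR). The cofactors Ldb1 and Ldb2 were higher in the Lhx8 knockout, by 2.22-fold and 1.57-fold. Ldb1 had only 36 to 46 counts in each control and passed in 5 of 11 alternative analyses, and Ldb2 passed in 8 of 11. In Figla knockout ovaries of the same age, Lhx9 and Ldb2 were higher, by 1.4-fold and 1.59-fold. There Lhx9 passed in 4 of 11 alternative analyses and Ldb2 in 6 of 11. The Lhx8 effect minus the Figla effect on Lhx9 was 0.01 on the log2 scale (SE 0.20).

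The samples were whole B6D2F1 mouse ovaries in 20 RNA-seq libraries. Figla knockouts and their controls were compared at embryonic day 18.5 (E18.5, 4 libraries a group) and on the day of birth (P0, 3 libraries a group). Lhx8 knockouts and their controls were compared at P0 with 3 libraries a group. The genotype field writes the knockout state as Figla-/- or Lhx8-/- and the control state as Figla+/- or Lhx8+/-, while the Lhx8 library names write WT for the controls. The sources used here do not say how either allele was made, or which ovaries came from separate animals. Each p-value is therefore set against a spread between libraries that may be partly technical.

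Groups were taken from the library names, but the titles, and the genotype field that follows the titles, disagree with them in 6 of 14 Figla libraries and in 6 of 6 Lhx8 libraries. Every library called an Lhx8 control here thus has Lhx8-/- in that field, and every Lhx8 knockout Lhx8+/-. Grouping the Lhx8 libraries by title turns the sign of every Lhx8 knockout over control value below. Totals were 5583392 to 13408022 counts in the Figla libraries and 8297204 to 9978350 in the Lhx8 libraries. At E18.5, control libraries 1 and 2 differed by little more than sampling noise, and so did knockout libraries 1 and 2. Each of these pairs was summed and counted as 1 sample, leaving 3 samples a group. The E18.5 samples numbered 3 stood apart in both groups. Control 3 had 6.18 CPM of Lhx8 (read counts scaled to library size with TMM factors) against 94.3 and 119 in the other controls, and 3.78 CPM of Figla against 21.9 and 26.7. Knockout 3 had 6.61 CPM of Lhx8 against 17.8 and 43.9 in the other knockouts. The targeted genes can be set beside the label conflict. By library name, Lhx8 was at 90.4 to 103 CPM in the Lhx8 controls and at 17 to 30.5 CPM in the Lhx8 knockouts. The titles would give the knockouts the higher Lhx8 levels. At P0 the titles would also put a library with 0.183 CPM of Figla among the controls and a library with 41.4 CPM among the Figla knockouts.

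LIM homeobox proteins carry paired LIM zinc fingers, which bind other proteins, and a homeodomain, which binds DNA. LDB proteins dimerize and hold LIM homeobox proteins in larger complexes, SSBP proteins bind and stabilize LDB proteins, and LMO proteins have LIM fingers without a homeodomain and compete for LDB. In the ovary, LHX8 and FIGLA are oocyte transcription factors needed for early follicle development, and LHX9 acts earlier, in somatic cells of the forming gonad.

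The relatives share with Lhx8 the stretch of the homeobox that encodes the DNA recognition helix. It is shown because it encodes the part of the homeodomain that contacts DNA. Each stretch of 42 bases was read from the GENCODE M21 transcripts, and capitals mark bases that differ from Lhx8.
Lhx8: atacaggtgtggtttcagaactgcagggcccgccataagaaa
Lhx6: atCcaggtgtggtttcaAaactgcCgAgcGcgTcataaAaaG
Isl1: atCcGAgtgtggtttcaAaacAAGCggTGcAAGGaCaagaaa
Lmx1a: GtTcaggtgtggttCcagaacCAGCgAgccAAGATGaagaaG
Lmx1b: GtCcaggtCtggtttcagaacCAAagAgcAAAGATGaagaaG
Lhx2: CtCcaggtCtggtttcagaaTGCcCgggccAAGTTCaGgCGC
Lhx1: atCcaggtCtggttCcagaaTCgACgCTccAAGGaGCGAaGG
Lhx9: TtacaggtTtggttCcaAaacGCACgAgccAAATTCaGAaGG

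Lhx6 was the nearest to Lhx8, with 8 of the 42 bases different. Isl1, Lmx1a and Lmx1b differed at 15 bases, Lhx2 at 17, and Lhx1 and Lhx9 at 19. The longest run of bases that any of these 7 relatives' transcripts shared with an Lhx8 transcript was 14, in Lhx6.

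The first comparison set Lhx8 knockout against control ovaries at P0. Lhx8 itself was measured at 93.9, 103 and 90.4 CPM in the controls and at 17, 30.5 and 23.7 CPM in the knockouts. Its log2 fold change was -2.01 (SE 0.20, adjusted p = 0.000206, edgeR), so reads of its 3' end remained in every knockout. The deleted part of the gene is not given in the sources used here, so these 3' counts do not show how much intact transcript was left.

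Of the 10 genes, 7 had enough counts to be tested in this comparison, and Lhx1, Lhx2 and Lmx1a did not. Of the tested genes, 2 passed as higher (Ldb1 and Ldb2) and 0 as lower, where 3.06% of the 15274 genes tested passed as higher and 7.29% as lower (10.4% in all). In 4 (Lhx9, Ldb1, Ldb2 and Ssbp3) every knockout lay above every control, where 15.6% of all genes did so; a further 18.1% lay wholly below, 33.7% in all. The median log2 fold change of the 7 was 0.35, beside 0.05 over all genes tested.

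Among the relatives, Lhx9 (chromosome 1, 138825186 to 138848577, minus strand, GRCm38) was the most abundant. Lhx9 stood at 56.5, 54.2 and 62.2 CPM in the controls and at 90.6, 67.7 and 86.6 CPM in the Lhx8 knockouts. The groups did not overlap, and knockout 2 was nearest to the controls. The log2 fold change of Lhx9 was 0.50 (SE 0.15, 95% interval 0.17 to 0.83), and it missed the threshold (adjusted p = 0.0581, edgeR). Of 11 alternative analyses that kept the groups, 3 put Lhx9 past the threshold and 8 did not, with adjusted p from 0.0342 to 0.205.

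Lhx6, a regulator of interneuron and tooth development and the nearest in sequence, stood at 2.82, 1.27 and 3.49 CPM in the controls and at 2.05, 2.04 and 1.86 CPM in the Lhx8 knockouts. The knockout values of Lhx6 lay inside the range of the controls. Its log2 fold change was -0.34 (SE 0.44, 95% interval -1.33 to 0.65, adjusted p = 0.661, edgeR). The upper end of that interval is a rise of 0.65 on the log2 scale, and the data do not show that Lhx6 was the same in both groups.

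Isl1, known for its part in motor neurons, heart and pancreas, stood at 2.4, 1.37 and 2.02 CPM in the controls and at 1.66, 3.07 and 2.23 CPM in the Lhx8 knockouts. Its groups overlapped, and its log2 difference was 0.26 (SE 0.42, 95% interval -0.68 to 1.20, adjusted p = 0.729, edgeR). Lmx1b, a regulator of limb, kidney and brainstem development, stood at 4.29, 3.59 and 2.36 CPM in the controls and at 2.73, 1.74 and 1.86 CPM in the knockouts. Knockout 1 of Lmx1b lay above control 3, and the log2 fold change was -0.69 (SE 0.40, 95% interval -1.57 to 0.19, adjusted p = 0.286, edgeR).

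The other 3 relatives were near the limit of detection in the Lhx8 set. Lhx1, which acts in head, kidney and duct development, had 0, 2 and 0 counts in the controls and 0, 6 and 0 in the knockouts, all of the latter from knockout 2. Lmx1a, a regulator of midbrain dopamine neurons, had 5, 1 and 0 counts in the controls and 0, 2 and 0 in the knockouts. Neither gene could show a difference at this depth. Lhx2, which acts in eye, forebrain and hair follicle development, had 8, 10 and 14 counts in the controls and 1, 4 and 8 in the knockouts. The pooled knockout to control ratio of Lhx2 was 0.404 (95% interval 0.194 to 0.791), an interval that covers counting error only, and its groups met at 0.992 CPM in knockout 3 and 0.836 CPM in control 1.

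**Figure D1:**
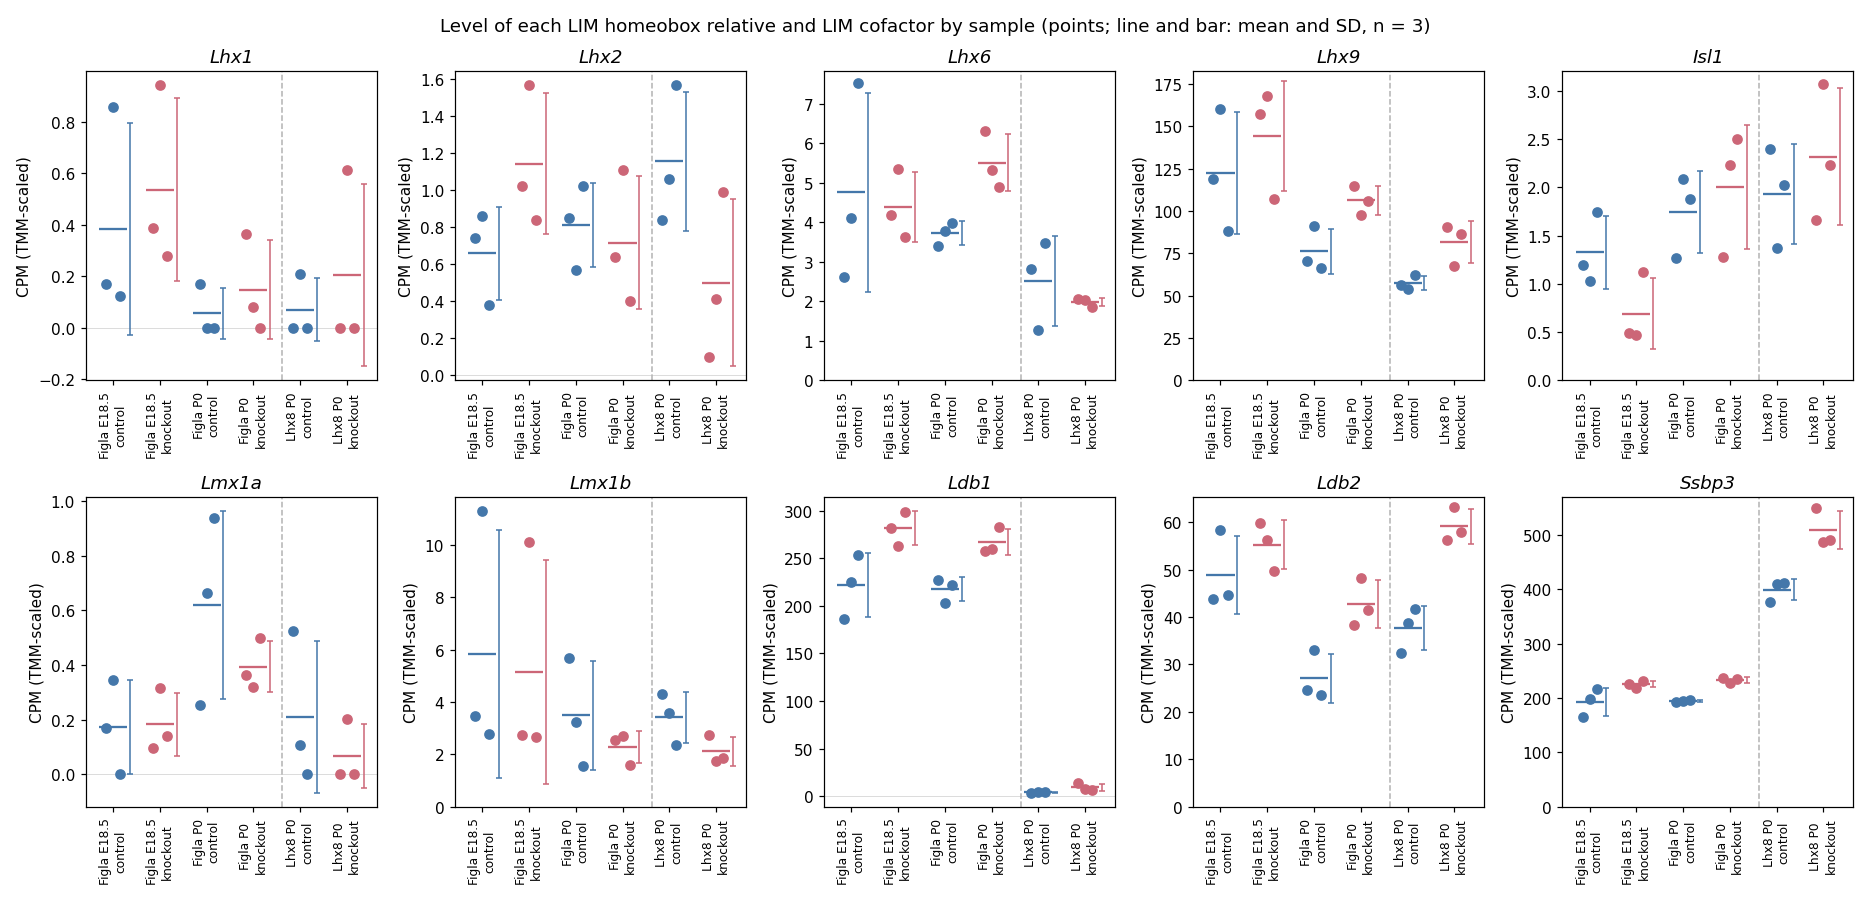
TMM-scaled CPM (y axis, from 0 or just below it) of each of the 10 genes in the 6 groups (x axis), with 1 point per sample, a line at the mean and a bar of 1 SD (n = 3); the dashed line separates the Figla libraries from the Lhx8 libraries, which were made with different kits. Lhx9, Ldb1, Ldb2 and Ssbp3 lie higher in all 3 Lhx8 knockouts than in all 3 controls, while Lhx1, Lhx2 and Lmx1a stay under 2 CPM in every sample.

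The members that passed the test in the Lhx8 comparison were the LDB cofactors. Ldb2 (chromosome 5, 44472132 to 44799680, minus strand) encodes an LDB protein. Ldb2 stood at 32.5, 38.8 and 41.7 CPM in the controls and at 56.2, 63.2 and 57.9 CPM in the Lhx8 knockouts. The lowest knockout of Ldb2 lay well above the highest control. The log2 fold change of Ldb2 was 0.65 (SE 0.14, adjusted p = 0.0192, edgeR). Leaving out control 1, control 2 or knockout 2 ended the call for Ldb2 (adjusted p = 0.0943, 0.0811 and 0.0564, edgeR), within a range of 0.00689 to 0.0943 over 11 alternatives, 8 of which kept it.

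Ldb1 (chromosome 19, 46032593 to 46045214, minus strand) encodes the founding LDB protein. In the Lhx8 set it had only 37, 46 and 36 counts in the controls and 138, 79 and 55 in the knockouts, or 3.87, 4.86 and 4.05 CPM against 13.5, 8.07 and 6.82 CPM. All knockouts of Ldb1 lay above the controls, and knockout 1 stood far above knockouts 2 and 3. The log2 fold change was 1.15 (SE 0.31, adjusted p = 0.0439, edgeR), which became 0.81 (adjusted p = 0.11) without knockout 1.

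The Ldb1 count in this set is of a particular kind. In the Figla libraries, which cover whole transcripts, Ldb1 was among the most abundant members, at 203 CPM or more in every P0 sample, while in the 3' end libraries its mean was 4.26 CPM in the controls. The Ldb1 model that was counted ends at 46032593, 1023 bases short of the 3' end in GENCODE M21 (46031570). For the other 9 members the 3' ends in the 2 annotations were the same. Reads in those 1023 bases were not counted, so the Ldb1 difference rests on reads upstream of them, and 5 of 6 leave-one-out fits lost the call (adjusted p from 0.0616 to 0.151, edgeR), while the fit without knockout 3 kept it (0.0329). Ldb1 also shares 177 exonic bases at its 5' end with Pprc1 on the opposite strand, and strand was ignored in counting; Pprc1 itself differed by -0.04 on the log2 scale.

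Ssbp3 (chromosome 4, 106910701 to 107049694, plus strand) encodes a partner that stabilizes LDB proteins. It stood at 377, 409 and 411 CPM in the controls and at 550, 487 and 490 CPM in the Lhx8 knockouts. The Ssbp3 groups did not overlap, and knockout 1 was the highest. Its log2 fold change of 0.35 (SE 0.12, 95% interval 0.08 to 0.62) missed the threshold (adjusted p = 0.0916, edgeR).

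Markers of other cell types moved with these cofactors. Summed over 10 germ cell and oocyte markers, the level was 1616 to 2026 CPM in the controls and 842 to 1352 CPM in the Lhx8 knockouts. Of the 10, 6 passed as lower and 9 had a negative log2 fold change. Summed stroma markers (6 genes) were at 2139 to 2555 CPM in the controls and 3194 to 3599 CPM in the knockouts, and 8 pregranulosa markers at 1373 to 1481 CPM and 1617 to 1804 CPM. Of the stroma markers 2 passed as higher, and of the 7 pregranulosa markers tested 1 did, with list medians of 0.38 and 0.22 on the log2 scale. The 6 endothelial markers summed to 416 to 439 CPM in the controls and 422 to 505 CPM in the knockouts, with a median of 0.41 and 0 passing edgeR (3 at an unadjusted p under 0.05). Duct markers (6 genes, Emx2 among them) summed to 147 to 160 CPM and 188 to 244 CPM, and 1 of the 4 tested passed as higher. Surface epithelium markers summed to 173 to 303 CPM and 277 to 305 CPM, with 1 of 5 passing as higher and a median of 0.42. Erythroid markers stood at 6423, 4149 and 5404 CPM in the controls and at 11876, 4930 and 11562 CPM in the knockouts, with a median of 0.85 over the 4 tested and 0 passing edgeR (3 at an unadjusted p under 0.05). Macrophage markers summed to 40 to 53.9 CPM and 43.2 to 71.7 CPM, with a median of 0.33 and 0 passing (0 at an unadjusted p under 0.05). None of the germ cell, stroma, pregranulosa and endothelial markers was at 0 in all 3 samples of either group. The part of these cell types in the Ldb1, Ldb2 and Lhx9 values was not tested, and in whole ovaries fewer cells of a type and less RNA per cell cannot be told apart.

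The wider LIM complex was read from 11 other genes, of which 9 were tested in the Lhx8 comparison. Of these 0 passed as higher and 1 as lower, with a median of -0.20 on the log2 scale. At an unadjusted p under 0.05 there were 5, and the share of all genes at that cutoff is not given here. The gene that passed as lower was Lmo3, which encodes a LIM-only protein of neurons and neuroblastoma. Lmo3 had 17, 17 and 15 counts in the controls and 3, 1 and 4 in the Lhx8 knockouts. Every knockout was far below every control, and the pooled ratio was 0.162 (95% interval 0.0663 to 0.345, counting error only). For Lmo3 edgeR fitted a log2 difference of -2.55 (SE 0.58, adjusted p = 0.0222), and leaving out any sample except knockout 3 ended that call (adjusted p from 0.0563 to 0.0942), within 0.00281 to 0.0942 over 11 alternatives. Beside it, 8 neural and neural crest markers summed to 116 to 132 CPM in the controls and 88.4 to 105 CPM in the knockouts. Phox2a was at 0 in all 3 knockouts. Of the 4 neural markers tested, 3 had a positive log2 fold change (median 0.10), and 1 passed as higher and 1 as lower. The germ cell and oocyte markers were also lower, at 842 to 1352 CPM against 1616 to 2026 CPM in the controls. The part of either marker list in the Lmo3 value was not tested.

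Lhx4, a LIM homeobox relative known from pituitary development, was outside the 10 but is named because it passed in the Figla set. Lhx4 had 4, 6 and 6 counts in the Lhx8 controls and 24, 13 and 11 in the Lhx8 knockouts. Its groups did not overlap, and its log2 fold change of 1.53 (SE 0.51, 95% interval 0.40 to 2.66) missed the threshold (adjusted p = 0.0833, edgeR). In 1 of 11 alternatives, the fit that shared its spread with the Figla P0 groups, Lhx4 passed (adjusted p = 0.0434, range 0.0434 to 0.258).

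Among 10 regulators of the gonadal ridge, the embryonic tissue in which LHX9 is known to act, 8 were tested in the Lhx8 comparison. Emx2, a homeobox gene of the urogenital ridge, was 1.47-fold higher (log2 fold change 0.55, SE 0.14, adjusted p = 0.0337, edgeR). Gata6, a GATA factor of gonadal somatic cells, was 1.62-fold higher (0.70, SE 0.19, adjusted p = 0.0452). The other 6 did not pass and 0 passed as lower, and the median of the 8 was 0.19.

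The second comparison set Figla knockout against control ovaries at P0. Figla stood at 32.8, 36.8 and 41.4 CPM in the controls and at 0.183, 0.637 and 0.3 CPM in the knockouts (log2 fold change -6.54, SE 0.29, adjusted p = 5.42e-07, edgeR). Lhx8 was lower here too. Lhx8 was at 162, 149 and 206 CPM in the controls and at 54.3, 61.8 and 66.7 CPM in the Figla knockouts (log2 fold change -1.50, SE 0.14, adjusted p = 5.42e-05, edgeR).

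Of the 10 genes, 7 were tested at P0 in the Figla set. Of these 2 passed as higher (Lhx9 and Ldb2) and 0 as lower, where 5.12% of the 17321 genes tested passed as higher and 10.9% as lower (16% in all). In 5 (Lhx6, Lhx9, Ldb1, Ldb2 and Ssbp3) every knockout lay above every control, where 15.3% of all genes did so; a further 20.3% lay wholly below, 35.6% in all. The median of the 7 was 0.30 on the log2 scale, beside 0.02 over all genes tested.

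Lhx9 stood at 70.7, 91.2 and 66.6 CPM in the Figla controls and at 115, 97.7 and 106 CPM in the Figla knockouts. The groups did not overlap, and the highest control was close to the lowest knockout. The log2 fold change of Lhx9 was 0.48 (SE 0.13, adjusted p = 0.034, edgeR). Lhx9 was called in 4 of 11 alternatives and lost in the others, which included leaving out any sample except control 2 (adjusted p from 0.0606 to 0.11, range over all alternatives 0.00471 to 0.213, edgeR or DESeq2).

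Ldb2 stood at 24.6, 33 and 23.5 CPM in the Figla controls and at 38.4, 48.2 and 41.5 CPM in the Figla knockouts. Every knockout lay above every control, and control 2 was nearest to the knockouts. The log2 fold change of Ldb2 was 0.67 (SE 0.16, adjusted p = 0.0171, edgeR). It was called in 6 of 11 alternatives, and leaving out control 1, control 3, knockout 2 or knockout 3 ended the call (adjusted p = 0.0506, 0.0575, 0.0819 and 0.0595, range over alternatives 0.0007 to 0.0819).

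The other cofactors did not pass, though every knockout lay above every control. Ldb1, with 2139 to 3260 counts a sample in these whole-transcript libraries, stood at 227, 203 and 222 CPM in the Figla controls and at 258, 260 and 283 CPM in the knockouts. All knockouts of Ldb1 were above the controls, by 0.30 on the log2 scale (SE 0.09, 95% interval 0.09 to 0.51), and the gene missed the threshold (adjusted p = 0.056, edgeR). Ssbp3 was at 193, 195 and 197 CPM in the controls and at 237, 227 and 234 CPM in the knockouts. Its groups did not overlap, and the difference of 0.26 on the log2 scale (SE 0.09) missed the threshold (adjusted p = 0.0682, edgeR).

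Lhx6 stood at 3.4, 3.79 and 3.99 CPM in the Figla controls and at 6.3, 5.33 and 4.9 CPM in the Figla knockouts. The Lhx6 groups did not overlap, and its log2 fold change of 0.57 (SE 0.24) missed the threshold (adjusted p = 0.143, edgeR). Isl1 was at 1.27, 2.09 and 1.88 CPM in the controls and at 1.28, 2.23 and 2.5 CPM in the knockouts, which overlapped (log2 fold change 0.20, SE 0.36, adjusted p = 0.757, edgeR). Lmx1b ranged from 1.56 to 5.69 CPM in the controls and from 1.6 to 2.71 CPM in the knockouts (log2 fold change -0.59, SE 0.44, adjusted p = 0.406, edgeR). Lhx1, Lhx2 and Lmx1a were not tested, with 2, 29 and 22 counts summed over the controls and 5, 25 and 13 over the knockouts.

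**Figure D2:**
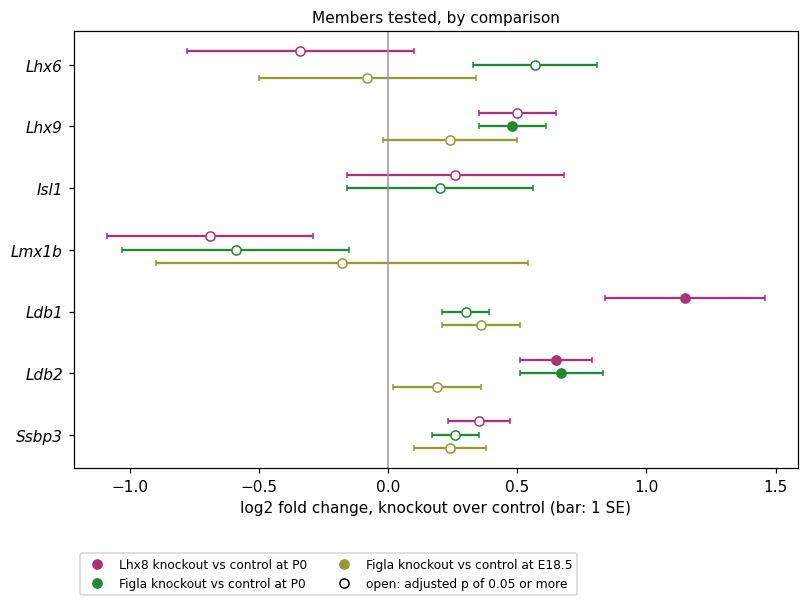
Log2 fold change, knockout over control (x axis), of each of the 7 genes tested in at least 1 knockout comparison (y axis), with bars of 1 SE; filled points passed an adjusted p of 0.05. Ldb1 and Ldb2 are filled in the Lhx8 comparison and Lhx9 and Ldb2 in the Figla comparison at P0, and Lhx9 lies at 0.50 and 0.48 in the 2 P0 comparisons.

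Of the 9 other LIM complex genes tested at P0 in the Figla set, 2 passed as higher and 2 as lower, with a median of -0.06. Lhx4 stood at 0.764, 0.758 and 0.391 CPM in the controls and at 4.29, 2.55 and 2.7 CPM in the Figla knockouts. The lowest knockout of Lhx4 was over 3 times the highest control, from 22 counts summed over the controls and 106 over the knockouts. Its log2 fold change was 2.31 (SE 0.40, adjusted p = 0.00312, edgeR), and it was called in 11 of 11 alternatives that kept the groups.

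Lmo4, a LIM-only gene of epithelial and neural tissues, stood at 21.8, 27.6 and 23.9 CPM in the Figla controls and at 51, 46 and 57.2 CPM in the knockouts. Every knockout of Lmo4 was far above every control (log2 fold change 1.08, SE 0.14, adjusted p = 0.000473, edgeR). Lmo3 was lower, at 4.07, 3.79 and 4.93 CPM in the controls and 1.28, 1.91 and 1.7 CPM in the knockouts. The Lmo3 groups did not overlap (log2 fold change -1.38, SE 0.29, adjusted p = 0.0102, edgeR), and the call was lost among the libraries whose labels agree (adjusted p = 0.081, range over alternatives 0.0016 to 0.081). Rlim, a ubiquitin ligase that targets LDB proteins, was at 391, 379 and 460 CPM in the controls and 317, 296 and 299 CPM in the knockouts. It was lower in every knockout (log2 fold change -0.43, SE 0.10, adjusted p = 0.0181, edgeR), a call lost without control 3, knockout 2 or knockout 3 (adjusted p = 0.0501, 0.0746 and 0.101, range over alternatives 0.00403 to 0.149). Lmo4 and Rlim had the same signs in the Lhx8 set but did not pass there. Their log2 fold changes were 0.36 (SE 0.14, adjusted p = 0.135, edgeR) and -0.34 (SE 0.13, adjusted p = 0.115). Neither gene's Lhx8 groups overlapped, where 33.7% of all genes tested did not.

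**Figure D3:**
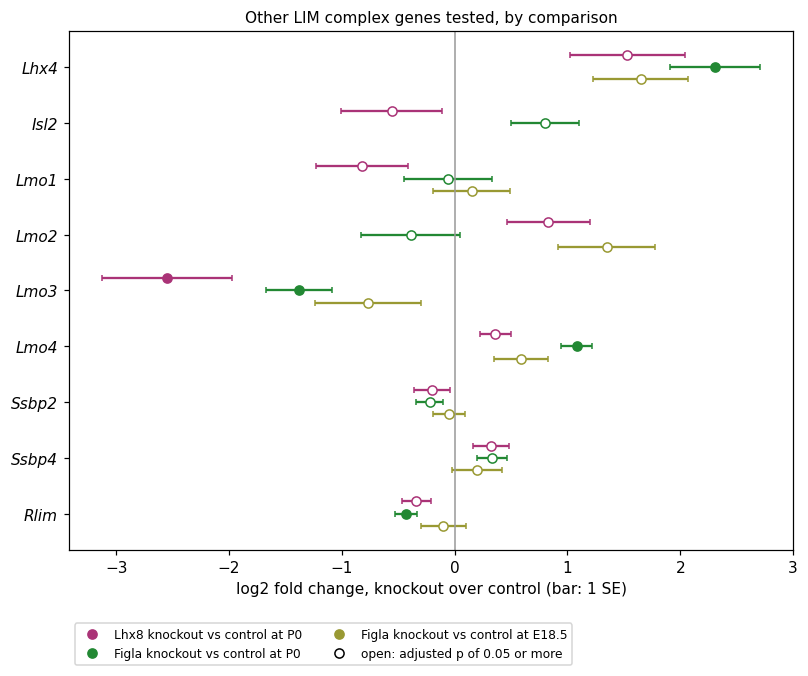
Log2 fold change, knockout over control (x axis), of the 9 other LIM complex genes tested (y axis) in the 3 knockout comparisons, with bars of 1 SE; filled points passed an adjusted p of 0.05. Lmo3 is filled on the lower side in both P0 comparisons, at -2.55 and -1.38, and Lhx4 and Lmo4 are filled on the higher side in the Figla comparison at P0 alone.

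Of the gonadal ridge regulators that passed in the Lhx8 set, neither passed at P0 in the Figla set. Emx2 and Gata6 had log2 fold changes of 0.44 and 0.49 there (SE 0.18 and 0.16, adjusted p = 0.128 and 0.0647, edgeR).

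Markers of some cell types moved with Lhx9 and Ldb2 in this set as well. Germ cell and oocyte markers summed to 1773 to 2497 CPM in the controls and 706 to 781 CPM in the Figla knockouts. Of these 10 markers 9 passed as lower, and Zp3 was at 0 in all 3 knockouts. Figla, the targeted gene, is itself among the 10 and among the 9, so its share of both was fixed by the design. Endothelial markers summed to 259 to 369 CPM and 437 to 502 CPM. Of these 6, 4 passed as higher, and all 6 had a positive log2 fold change. Stroma markers summed to 1699 to 2089 CPM and 2493 to 2807 CPM with 4 of 6 passing as higher. Pregranulosa markers summed to 1550 to 1978 CPM and 2273 to 2538 CPM with 2 of 8 passing as higher. Of 4 macrophage markers 1 passed as higher, and of 5 surface epithelium and 6 erythroid markers 0 passed. Of 5 duct markers tested (median 0.44) 1 passed as lower and 0 as higher. The same was so for 4 neural and neural crest markers tested (median -0.28). The part of these cell types in the Lhx9, Ldb2, Lhx4, Lmo4, Lmo3 and Rlim values was not tested.

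Whether the knockouts differed was tested on the difference of their effects at P0, in a model of all 4 P0 groups. Of 18336 genes, 0.409% passed, and of the 8 members tested 0 did with edgeR or DESeq2 (1 at an unadjusted p under 0.05, Ldb1). The Lhx8 effect minus the Figla effect was 0.01 for Lhx9 (SE 0.20, adjusted p = 1), -0.03 for Ldb2 (SE 0.22, adjusted p = 1) and 0.85 for Ldb1 (SE 0.28, adjusted p = 0.379). It was -0.91 for Lhx6 (SE 0.49, adjusted p = 0.672), whose estimates have opposite signs in the 2 knockouts, and -0.72 for Lmo4 (SE 0.20, adjusted p = 0.234, edgeR). The kits differed between the sets, so a kit effect that differs between control and knockout cannot be told apart from the knockouts.

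The third comparison set Figla knockout against control ovaries at E18.5, where 0.0062% of the 16131 genes tested passed. Figla itself was at 21.9, 3.78 and 26.7 CPM in the controls and 0.828, 1.26 and 1.53 CPM in the knockouts (log2 fold change -3.91, SE 0.71), and it did not pass (adjusted p = 0.411, edgeR). Of the 6 members tested 0 passed with edgeR or DESeq2 (1 at an unadjusted p under 0.05, Ldb1). In 2 of them every knockout lay above every control, where 3.4% of all genes did so; a further 3.94% lay wholly below, 7.35% in all. The member median was 0.22 beside 0.01. Ldb1 was at 186, 225 and 253 CPM in the controls and at 282, 263 and 299 CPM in the knockouts (log2 fold change 0.36, SE 0.15, adjusted p = 1, edgeR). Ssbp3 was at 165, 198 and 216 CPM and at 226, 219 and 231 CPM (0.24, SE 0.14, adjusted p = 1). In both cofactors the highest control lay close to the lowest knockout.

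Lhx9 at E18.5 stood at 119, 160 and 88.4 CPM in the controls and at 157, 168 and 107 CPM in the Figla knockouts. Each knockout was above the control of the same number, but same-numbered samples were not tested as pairs. The groups overlapped, and the log2 fold change was 0.24 (SE 0.26, adjusted p = 1, edgeR). With 1 sample left out it ranged from 0.05 (without control 4) to 0.50 (without control 3), and it was 0.36 without both samples numbered 3. It passed in 0 of 13 alternatives (adjusted p from 0.668 to 1, edgeR or DESeq2). Ldb2 was at 43.8, 58.4 and 44.6 CPM and at 59.8, 56.2 and 49.7 CPM, which overlapped (0.19, SE 0.17, adjusted p = 1), and its log2 fold change ranged from 0.12 to 0.35 with 1 sample left out.

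Lhx6 ranged from 2.63 to 7.52 CPM in the E18.5 controls and from 3.63 to 5.35 CPM in the knockouts, and Lmx1b from 2.76 to 11.3 CPM and from 2.65 to 10.1 CPM. The highest Lmx1b values were in control 3 and knockout 3, and neither gene passed (log2 fold changes of -0.08 and -0.18, SE 0.42 and 0.72). Isl1 was not tested at E18.5, with 21, 6 and 14 counts in the controls and 10, 3 and 8 in the knockouts (pooled ratio 0.471, 95% interval 0.265 to 0.816, counting error only). Lhx4 was already higher in each E18.5 knockout than in any control, at 1.03, 0.859 and 0.752 CPM against 2.05, 2.36 and 4.18 CPM (log2 fold change 1.65, SE 0.42), and it did not pass (adjusted p = 0.89, edgeR).

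Between E18.5 and P0, 0 members of the 8 tested passed in edgeR in the Figla controls, where 0 of 18379 genes did (2 members at an unadjusted p under 0.05). Ldb2 was 48.9 CPM ± 8.22 (SD, n = 3) at E18.5 and 27 CPM ± 5.17 at P0 in the controls, and Lhx9 was 123 CPM ± 35.9 and 76.1 CPM ± 13.2. The P0 over E18.5 log2 fold changes were -0.85 for Ldb2 (SE 0.17, adjusted p = 0.061, edgeR) and -0.69 for Lhx9 (SE 0.22, adjusted p = 0.0982). DESeq2 called 1 member, Ldb2 (-0.82, adjusted p = 0.0018), within a range of 0.0018 to 0.251 over 9 alternatives.

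In the Figla knockouts 0 members passed between the ages in edgeR or DESeq2, where 0.00544% of genes passed (2 members at an unadjusted p under 0.05). The estimate farthest from 0 was that of Isl1, with a mean of 0.692 CPM ± 0.367 (SD, n = 3) at E18.5 and 2 CPM ± 0.642 at P0 (log2 fold change 1.59, SE 0.44, adjusted p = 0.197, edgeR). The Figla effect at P0 minus that at E18.5 passed for 0 of 18379 genes, members included, in edgeR, and for 0 members in DESeq2. It was 0.48 for Ldb2 (SE 0.24), 0.25 for Lhx9 (SE 0.31) and 1.20 for Isl1 (SE 0.60), and 0 members had an unadjusted p under 0.05.

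Levels were compared between genes per length, as CPM per kilobase of exon in the Figla libraries, since 3' end counts do not scale with length. In the P0 controls Lhx8 was at 68.1 ± 11.7 and Ldb1 at 60.6 ± 3.53 CPM per kilobase (SD, n = 3), with ranges that overlapped. Ssbp3 followed at 29.6 ± 0.31, then Ldb2 at 8.11 ± 1.55 and Lhx9 at 8.02 ± 1.39, which did not differ beyond their spread. Lhx9 was thus more than 5 times as high as any other relative among the 7.

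The remaining relatives formed a low group in the P0 controls. Lhx6 was at 0.775 ± 0.0629 and Lmx1b at 0.715 ± 0.425 CPM per kilobase, which overlapped. Isl1 was at 0.441 ± 0.107, overlapping Lmx1b, and Lhx2 at 0.185 ± 0.0515 and Lmx1a at 0.182 ± 0.101 overlapped each other. Lhx1 was last at 0.0139 ± 0.0241, with 0 counts in 2 of 3 controls. At E18.5 the same 4 members led, with Ldb1 at 61.7 ± 9.32, Ssbp3 at 29.3 ± 3.91, Ldb2 at 14.7 ± 2.46 and Lhx9 at 12.9 ± 3.79 CPM per kilobase.

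**Figure D4:**
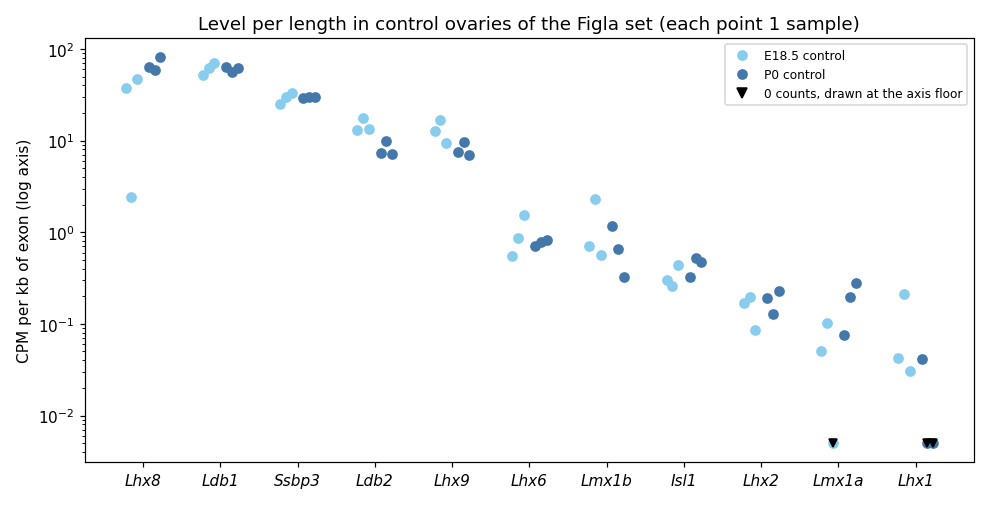
CPM per kilobase of exon (y axis, log scale) of Lhx8 and the 10 members (x axis, in the order of their P0 control means) in the control samples of the Figla set at E18.5 and P0, with 1 point per sample. Ldb1, Ssbp3, Ldb2 and Lhx9 lie above 5 CPM per kilobase in every sample, the other 6 members lie below 3, and the low E18.5 point of Lhx8 is control 3.

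Genes whose pattern was most like that of each relative were ranked by Pearson correlation of log2 CPM over the 12 Figla samples, among 18378 genes. For Lhx9 they were Sorbs2 (r = 0.97), Cblb (0.96) and Asb4 (0.96). For Isl1 the highest r was 0.93, with Txlna and Snx19, for Lhx6 it was 0.89 with Scarf2, for Lmx1b 0.93 with Gm37268 and for Lhx2 0.79 with Mospd1. These values describe samples that share age, genotype and library effects, and Lhx2 at under 2 CPM had the lowest of them.

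The promoters were read because FIGLA, a basic helix-loop-helix protein, binds E-boxes (CANNTG), and LHX8 has been described to bind TGATTG. In RefSeq (GRCm38.p6), 9 of the 10 members had a promoter entry, with 15 start sites, and the 250 bases before each were searched on both strands. An E-box was in 7 of the 15 windows, where 66.2% of 32536 mouse promoter windows of the same length held 1 or more. TGATTG was in 1 window, that of Lhx1 (12.7% of all promoters), and TAATTA, a core that many homeodomains bind, in 0 (4.84% of all). The windows of Lhx9, the relative with the largest counts, and of Lmo3, lower in both P0 knockouts, are shown with their E-boxes in capitals.
Lhx9, chr1:138842445-138842694, minus strand: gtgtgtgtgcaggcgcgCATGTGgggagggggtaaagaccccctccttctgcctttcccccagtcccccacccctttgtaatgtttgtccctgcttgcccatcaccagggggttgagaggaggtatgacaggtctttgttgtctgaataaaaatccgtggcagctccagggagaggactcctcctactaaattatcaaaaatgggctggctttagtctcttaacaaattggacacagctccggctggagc
Lmo3, chr6:138581969-138582218, minus strand: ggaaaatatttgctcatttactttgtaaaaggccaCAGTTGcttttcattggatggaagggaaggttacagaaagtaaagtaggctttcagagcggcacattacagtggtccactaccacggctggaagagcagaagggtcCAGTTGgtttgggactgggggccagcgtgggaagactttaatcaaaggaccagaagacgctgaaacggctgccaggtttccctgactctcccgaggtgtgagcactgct

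The Lhx9 window holds 1 E-box and the Lmo3 window 2. A match describes these letters in this window and shows no binding, and these files hold no binding data for either factor.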

How the data were processed

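Whole ovaries were profiled in 20 libraries: 14 of the Figla set (a Nextera kit on double-stranded cDNA, covering whole transcripts) and 6 of the Lhx8 set (a QuantSeq 3' end kit), per the labels' protocols. The submitters' processing notes name cutadapt, HISAT2 and the build GRCm38.p5 (tool versions not given in the sources used here). The authors deposited raw counts per gene; per the file headers, featureCounts 1.6.0 counted them against GENCODE M12 without regard to strand. Of 49585 gene IDs, 49326 matched a symbol.

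Each comparison was fitted on its own groups with edgeR 4.0.16 in R 4.3.3 (filterByExpr with a minimum count of 10 and total of 15, TMM, quasi-likelihood test, Benjamini-Hochberg over all genes tested, threshold 0.05); age contrasts and differences of effects used models of 4 groups. The SE is the log2 fold change over the square root of F. Alternatives were DESeq2 1.42.0, RLE scaling, no filter, a shared spread, other groupings and leaving out each sample. Scripts were tested on simulated data. The E18.5 pairs that were summed had chi-square per degree of freedom of 1.12 and 1.32, against 6.62 to 62.3 in the other 22 pairs. CPM values are TMM-scaled.

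All 10 members are named in every comparison, and of the other lists each gene past the threshold, apart from results that are not reported here. The members and lists were chosen with earlier results of these data known. Intervals of count ratios cover counting error only, as no molecular identifiers are recorded. Counts at an unadjusted p under 0.05 have no share over all genes beside them and cannot be read against one.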

Additional observations from a re-analysis of the deposited data

How the results depend on the processing

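Over 11 alternatives that kept the groups, Ldb1, Ldb2, Lhx9 and Ssbp3 stayed higher in Lhx8 knockouts and in Figla knockouts at P0, while calls at the threshold came and went. The members called ranged from 0 to 4 in the Lhx8 set and from 0 to 2 in the Figla set at P0. A sign change under 1 SE with neither value called was not counted as a turn. Low counts limit Lhx1, Lhx2, Lmx1a, Isl1, Lmx1b, Lhx6, Lhx4 and Lmo3, as well as Ldb1 in the Lhx8 set. Every test is limited by 3 samples a group. The cause of each change below was not tested, except where groups were exchanged.

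Grouping by title exchanges the Lhx8 groups, which gave log2 fold changes of 0.34 for Lhx6, -0.50 for Lhx9, -0.26 for Isl1, 0.69 for Lmx1b, -1.15 for Ldb1, -0.65 for Ldb2, -0.35 for Ssbp3, 2.01 for Lhx8, -1.53 for Lhx4 and 2.55 for Lmo3. In the Figla set at P0 it left 0 calls, with -0.04 for Lhx9 and -0.06 for Lhx4. At E18.5 it gave 0.59 for Lhx6, -0.08 for Lhx9 and 1.10 for Lmx1b. Libraries with agreeing labels gave 0.78 for Lhx6 and 0.87 for Lmx1b at E18.5. With 1 sample left out, Lhx6 ranged from -0.40 to 0.40 in the E18.5 knockout comparison and from -0.65 to 0.19 between ages in controls, turning positive without E18.5 control 4. Lmx1b ranged from -1.08 to 0.70 and from -1.25 to 0.14, turning positive without E18.5 control 3.

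The Lhx8 comparison called 1582 genes, against 2682 with no filter, 2838 with a shared spread and 630 to 1490 with 1 sample left out. The Figla comparison at P0 called 2767, against 1363 with a shared spread, 1835 with agreeing labels and 1423 to 2882 with 1 sample left out. At E18.5, 1 call became 114 with DESeq2, 229 with no filter, 53 with a shared spread, 1093 by title, 1082 with agreeing labels, 34 with each library as its own sample, 18 without both samples numbered 3, and 0 to 89 with 1 sample left out. Between ages in controls, 0 calls became 1548 with DESeq2, 1252 with no filter and 0 to 556 with 1 sample left out; in knockouts, 1 became 292, 530 and 0 to 150, and 0 with RLE scaling. The change of the Figla effect with age had 3 calls with DESeq2 and 63 with no filter. The difference between the knockouts had 75, against 147 with DESeq2, 340 with no filter and 41 to 106 with 1 sample left out.

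With the replicate number of the Lhx8 library names as a block, 931 genes were called, Ldb2 was kept (adjusted p = 0.0436, edgeR) and Ldb1 and Lmo3 were not (0.0947 and 0.0644). Same-numbered samples did not deviate together (r = -0.15, 0.05 and 0.04), so the numbers were not taken to pair them. No control correlated best with the knockout of its own number. Figla library names carry no replicate number, and no fit of the Figla set took same-numbered samples as pairs.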
